A study of Bos taurus with 24 samples.

Results

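The dominant transcripts of bovine granulosa cells were taken here as the 100 genes with the highest mean level, of 24615 genes listed for all cows. They were chosen by their mean level over 23 cows, in cpm, which is the count of a gene scaled to the total count of its library. Identifiers from ENSBTAG00000043540 to ENSBTAG00000043590, a block that the selection treats as mitochondrial, were left out, and 46 of them occurred in the files. Since the levels in these same 23 cows, without cow 8, made the choice, they are a description and carry no test. The scores of the cows took no part in the choice.

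Each of 24 Holstein cows gave 1 total-RNA library, made from granulosa cells that had been drawn from every antral follicle of the pair of ovaries and pooled. Leukocytes had been reduced with beads carrying antibodies to CD45, and erythrocytes had been reduced with a lysis buffer. All animals were dairy cows whose cycles had not been synchronized, and the cells were stored frozen. The study placed all the cows it selected for sequencing in the luteal phase. Semen of bulls with a high Nordic Total Merit (NTM) index was used for the oocytes of 15 cows and semen of low-NTM bulls for 9 cows, or 8 without cow 8, which the study left out as an outlier. The cells were collected before insemination, so the NTM class of the bull is a reference comparison. Every cow had 3 in vitro production scores, which were the BL rate (blastocysts per inseminated oocyte, in percent), the kinetic score (how far the blastocysts had expanded) and the morphology score (how they looked). Cows 1 and 15, both of the high-NTM class, had 0 for all 3 scores.

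Granulosa cells surround the oocyte in the follicle. They make oestradiol from precursors of the theca, respond to follicle-stimulating hormone and pass nutrients to the oocyte. In total RNA from which ribosomal RNA has been depleted, a few abundant RNAs can hold much of a library, among them RNAs of the mitochondrial genome and stable non-coding RNAs. When such RNAs take a larger share, every other gene takes a smaller one, because shares of 1 library sum to a fixed total. The files do not pair identifiers with gene names, and 0 identifiers were found in the only gene table at hand, so members are given by Ensembl identifier and by rank of mean cpm. For the same reason neither the granulosa label nor the origin of the block could be checked against marker genes. Gene length was not used here, so a higher cpm can mean a longer transcript as well as more molecules.

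Total counts ran from 15525201 (cow 24) to 27074496 (cow 21) read pairs. The lowest count of any member in any of the 23 cows was 488. The 95% Wilson interval of a share reached at most 0.0241 percentage points to either side, which covers counting error only, so the differences between cows given here are far larger than counting error. Cow 19 stood apart from the other cows in the share held by the members, and results that rest on it are given with and without it. Cow 24 had the lowest total and the most genes with a count (21629, against 15559 to 17771 in the other 22 cows).

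The 100 members held 35.9% ± 4.85 (SD, n = 23) of the counts of a cow. The share was 22.5% in cow 19, had a median of 36.9% and reached 43.9% in cow 11. The second lowest cow, cow 4, had 29.4%, so the other 22 cows spanned a much narrower range, with a mean of 36.5% ± 3.97 (SD, n = 22). High-NTM cows had a mean of 36.7% ± 4.26 (SD, n = 15) and low-NTM cows 34.3% ± 5.78 (SD, n = 8), and the ranges of the classes overlapped. In bulk RNA of pooled follicles, fewer cells of a type and less RNA per cell cannot be told apart. The block held 14.9% ± 5.67 (SD, n = 23), from 5.75% in cow 12 to 25.5% in cow 20. Of the counts outside the block, the members held 42.2% ± 5.43 (SD, n = 23), from 25.5% in cow 19 to 50.3% in cow 11.

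Within the members, counts were concentrated in the first ranks. Rank 1 held 21.4% of the summed mean level of the members, ranks 1 to 5 held 48.6% and ranks 1 to 10 held 57.2%. Only 5 members had a mean of at least 10000 cpm, while 8 lay between 3000 and 10000 cpm, 21 between 2000 and 3000 cpm, 65 between 1000 and 2000 cpm and 1 under 1000 cpm. The 10 highest members held 20.5% ± 3.95 (SD, n = 23) of all counts of a cow, from 11.0% in cow 19 to 29.0% in cow 11. Ranks 11 to 100 held 15.3% ± 1.54 (SD, n = 23), from 11.4% in cow 19 to 18.0% in cow 13. The 10 highest members thus varied more between cows than the 90 that followed, both in points and relative to their mean.

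**Figure D1:**
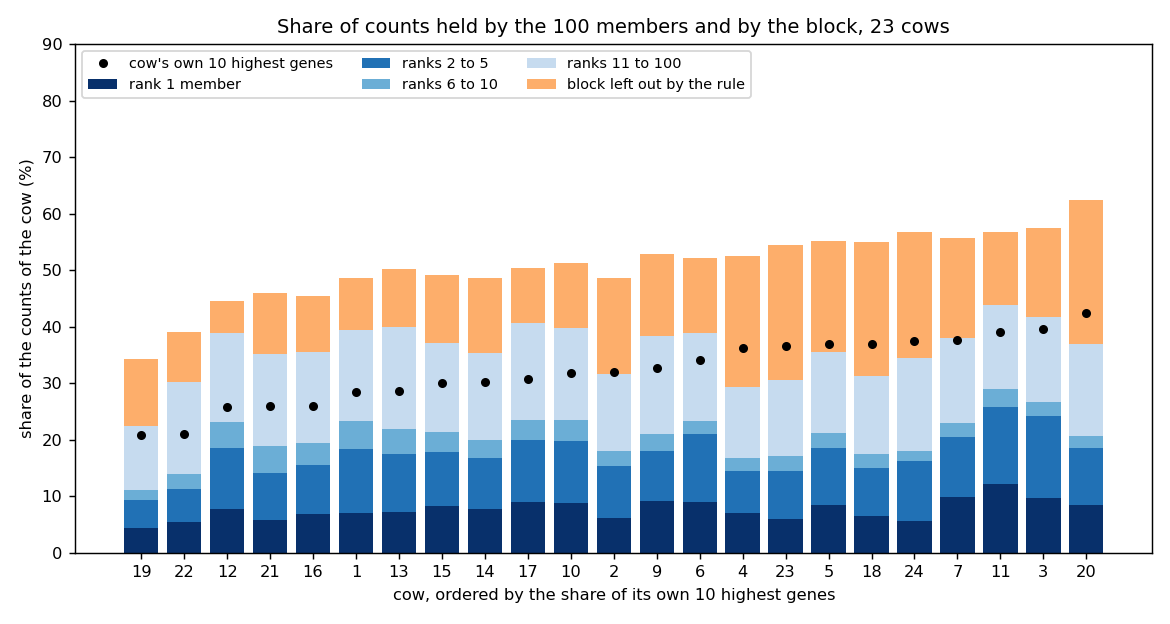
Stacked bars give the percentage of the counts of each of 23 cows held by the rank 1 member, ranks 2 to 5, ranks 6 to 10, ranks 11 to 100 and the block left out of the selection, and black points give the share of the cow's own 10 highest genes. Cow 19 had the smallest member share (22.5%) and cow 20 the largest block (25.5%) and the largest share of its own 10 highest genes (42.4%).

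ENSBTAG00000043250 (rank 1) was the most abundant member, with a mean of 7.66% of the counts of a cow. It ranged from 4.34% in cow 19 through a median of 7.66% to 12.2% in cow 11. ENSBTAG00000045661 (rank 2) had a mean of 4.14%, with 2.56% in cow 19, a median of 4.29% and 6.85% in cow 3. ENSBTAG00000044427 (rank 3) had a mean of 2.81%, with 1.47% in cow 19, a median of 2.73% and 4.89% in cow 11. These 3 genes were among the 10 highest of all genes in each of the 23 cows, and cow 19 was the lowest cow for each.

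ENSBTAG00000047908 (rank 4) and ENSBTAG00000042458 (rank 5) had the same mean to 3 digits, 1.41% of the counts. Rank 4 ran from 0.297% in cow 19 through a median of 1.51% to 1.93% in cow 24. Rank 5 ran from 0.485% in cow 24 through a median of 1.39% to 2.53% in cow 11. Cow 24 was therefore the highest cow for rank 4 and the lowest for rank 5. Each of the 2 genes was among the own 10 highest of 21 cows.

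Below these 5 the levels fell under 1% of the counts. ENSBTAG00000017863 (rank 6) had a mean of 0.959%, from 0.248% in cow 19 through a median of 0.892% to 1.79% in cow 1. ENSBTAG00000014534 (rank 7) had a mean of 0.683% and the smallest spread of the 10, from 0.480% in cow 1 through a median of 0.656% to 0.965% in cow 22. ENSBTAG00000044853 (rank 9) had a mean of 0.480%, from 0.301% in cow 2 through a median of 0.467% to 0.865% in cow 11. The remaining 2 were skewed, with means well above their medians. ENSBTAG00000021516 (rank 8) had a mean of 0.492%, with 0.187% in cow 6, a median of 0.355% and 1.27% in cow 21. ENSBTAG00000009972 (rank 10) had a mean of 0.476%, with 0.111% in cow 24, a median of 0.383% and 1.23% in cow 21. Ranks 8, 9 and 10 differed in mean cpm by far less than the SD of any of them, so their order is not resolved.

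Most members were among the highest genes of most of the cows on which they were chosen. Of the 100 members, 46 were among the own 100 highest genes outside the block in all 23 cows, 79 were so in at least 20 cows and 2 in fewer than 12 cows. The number of members in a cow's own 100 highest was 65 in cow 19 and 84 to 98 in the others. The highest cow had at least 2 times the cpm of the lowest cow for 78 members, at least 3 times for 26, at least 5 times for 15 and at least 10 times for 5. The median of this ratio over members was 2.40, and 1.83 without cow 19. Without cow 19, the same counts were 42, 17, 12 and 5, so cow 19 made many of the moderate ratios and none of the 5 that reached 10. Cow 19 was the lowest cow for 63 members, and cow 9 was the highest cow for 19 and cow 24 for 17. These counts are in cpm of all counts, block included, and another scaling can name other cows.

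The selection ends at rank 100 in a run of closely spaced genes. Just inside were ENSBTAG00000031723 with 1026 cpm, ENSBTAG00000003205 with 1021 cpm and ENSBTAG00000020935 with 996 cpm. Just outside were ENSBTAG00000019718 with 980 cpm, ENSBTAG00000010956 with 960 cpm and ENSBTAG00000017246 with 935 cpm. Each of these gaps was smaller than the SD of either neighbour over cows. Ranking by median cpm kept 98 of the 100 members, and ranking with cow 8 included, by totals without the block or by mean TMM-normalized cpm kept 99 each.

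The counts of cow 19 were spread over more genes of lower level. In this cow the genes ranked 101 to 1000 held 26.8% of the counts and those ranked 1001 to 5000 held 27.9%, against 18.3% to 27.1% and 14.3% to 25.1% in the other 22 cows, so it was near the top of the first range and above the second. With the block included, it took 376 genes to reach 50% of the counts of cow 19 and 268 genes in cow 22. In cow 20 it took 34 genes, and the median cow needed 100. The block of cow 19 was not unusual, at 11.9%. The part of RNA quality or of cell makeup in the position of cow 19 was not tested. The study reported that the main direction of variation between its libraries correlated with the RNA integrity number (RIN). RIN was not used here, so its part in any difference between cows was not tested.

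The share held by each cow's own 10 highest genes, block included, had a mean of 32.2% ± 5.87 (SD, n = 23). It was 20.9% in cows 19 and 22, with a median of 31.9% and a highest value of 42.4% in cow 20. Over all cows, 17 genes were ever among the 10 highest, and 5 of these were in the block and 12 were members. The variance of the share over cows was divided among these genes by the covariance of each gene's contribution with the share. A gene contributed its share of counts in cows where it was among the 10 highest, and nothing elsewhere. The parts sum to 100%, and a gene whose contribution ran against the share has a negative part.

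The block held 71.8% of this variance and the members 28.2%. ENSBTAG00000043570, a gene of the block that made up 2.94% of the counts in cow 12 and 15.7% in cow 20, held 47.9% by itself. Next came ENSBTAG00000043250 (rank 1) with 17.0%, ENSBTAG00000043567 of the block with 12.4%, ENSBTAG00000044427 (rank 3) with 9.06% and ENSBTAG00000043561 of the block with 6.63%. Among the other members, ENSBTAG00000045661 (rank 2) held 5.59%, ENSBTAG00000047908 (rank 4) 4.88% and ENSBTAG00000042458 (rank 5) 2.52%. The 5 highest members together held 39.1%, which other members offset with negative parts. ENSBTAG00000021516 (rank 8) had a part of -3.43%, ENSBTAG00000009972 (rank 10) of -2.65% and ENSBTAG00000017863 (rank 6) of -2.16%. Leaving out each cow in turn moved the part of the members between 18.2% and 33.7%. Its lowest value, 18.2%, came without cow 19.

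**Figure D2:**
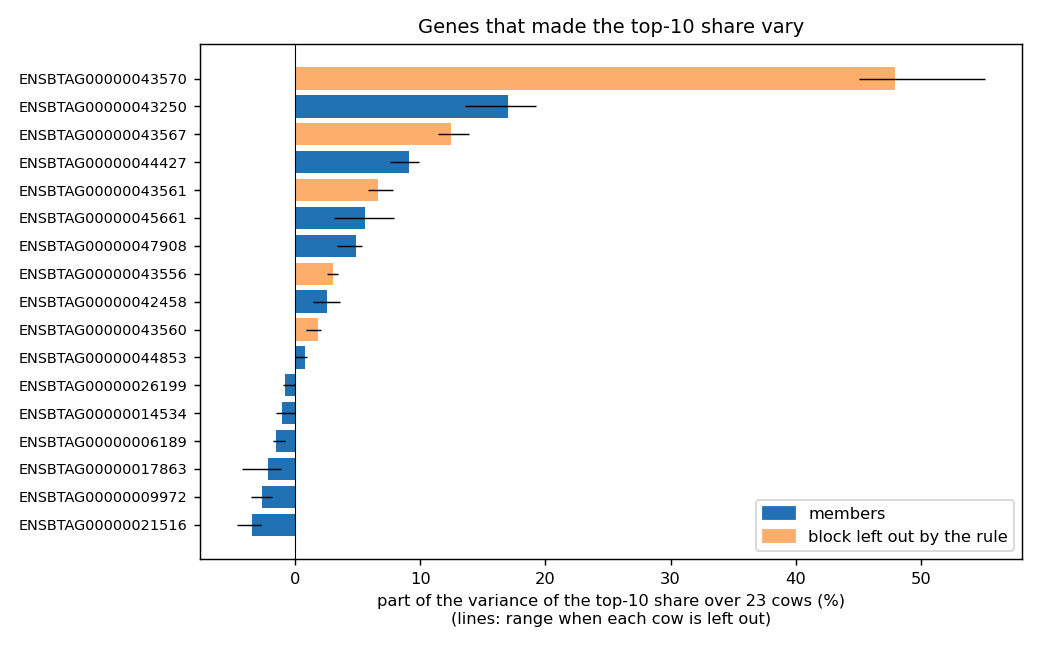
Bars give the part of the variance of the own top-10 share over 23 cows, in percent, for each of the 17 genes that were among the 10 highest of any cow, with lines for the range when each cow was left out. The gene ENSBTAG00000043570 of the block had the largest part (47.9%) and the rank 1 member followed (17.0%), while ranks 6, 8 and 10 had negative parts.

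Block and members both differed at either end of the range. Cow 20, at the top, had 23.9% of its counts in the 5 genes of the block among its 10 highest and 18.5% in the 5 members among them. Cow 11 reached 39.1% in another way, with 27.6% in 7 members and 11.4% in 3 genes of the block. At the bottom, cow 19 had 10.6% in 7 members and 10.3% in 3 genes of the block, and cow 22 had 13.2% and 7.77%. Cow 12 had the smallest block contribution, 3.86%, with 22.0% in 8 members. On counts outside the block, the 10 highest members varied from 12.5% in cow 19 to 33.3% in cow 11, and ranks 1 to 5 held 96.6% of the variance of that sum, 43.0% of it in rank 1. In that sum, where each member counts in every cow, ranks 6, 8 and 10 had parts of 2.22%, -0.203% and -1.09%. Ranks 1 to 5 also held 69.2% of the variance of the share of all 100 members (73.8% without cow 19), and 14 members had a negative part there.

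To compare single members between cows, counts were scaled by TMM, a method that sets libraries to a common level by a trimmed mean of gene ratios. The TMM factors ran from 0.759 in cow 20 to 1.41 in cow 19, with 1.29 in cow 22. On this scale the coefficient of variation (CV, the SD over the mean) of the members had a median of 24.7% over the 23 cows, beside 25.9% over all 12868 genes tested. Of the members, 14 had a CV under 20%, 21 of at least 30%, 9 of at least 50% and 1 of at least 100%. The median CV of the members was thus close to that of all genes, with a small number of very variable members. The genes tested reach down to levels near 1 cpm, where counting error is a larger part of a CV. The medians therefore do not compare the spread between cows at a like level.

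ENSBTAG00000014890 (rank 85) varied most, with a CV of 129%. Its TMM-normalized cpm was 33.5 in cow 24, had a median of 814 and reached 6922 in cow 15, a 206-fold range. The second highest cow, cow 21, had 2839, so 1 cow set the upper end. ENSBTAG00000002912 (rank 40) had a CV of 97.6%, with 103 in cow 24, a median of 1373 and 5878 in cow 21, and its next highest cows, 13 and 12, lay close behind with 5679 and 5470. ENSBTAG00000009972 (rank 10, CV 72.1%) ran from 1189 in cow 24 through 3932 to 11697 in cow 21, again followed by cows 13 and 12. ENSBTAG00000021516 (rank 8, CV 68.9%) ran from 1361 in cow 19 through 3420 to 12544 in cow 1, followed by cows 21 and 12. These 4 members all had cows 12 and 21 among their 3 highest cows. ENSBTAG00000025441 (rank 80, CV 66.6%) had another order, from 295 in cow 19 through 1079 to 4256 in cow 24.

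On the TMM scale the steadiest members were ENSBTAG00000000778 (rank 32) with a CV of 13.3%, ENSBTAG00000013162 (rank 17) with 15.0% and ENSBTAG00000026199 (rank 15) with 15.9%. Next came ENSBTAG00000004258 (rank 11) with 16.1% and ENSBTAG00000006045 (rank 92) with 16.8%. ENSBTAG00000000778 ran from 1496 TMM-normalized cpm in cow 19 through a median of 2151 to 2909 in cow 20. ENSBTAG00000026199 had its highest value, 3729, in cow 19 and its lowest, 1762, in cow 9. Which members were steadiest depended on the scaling. In cpm without TMM, ENSBTAG00000026199 had an SD of 728 on a mean of 2793. ENSBTAG00000031723 (rank 98), with a CV of 19.3% on the TMM scale, had an SD of 117 on a mean of 1026 cpm. In cpm of all counts, without TMM, cow 19 was above the median cow for 17 of the 100 members.

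**Figure D3:**
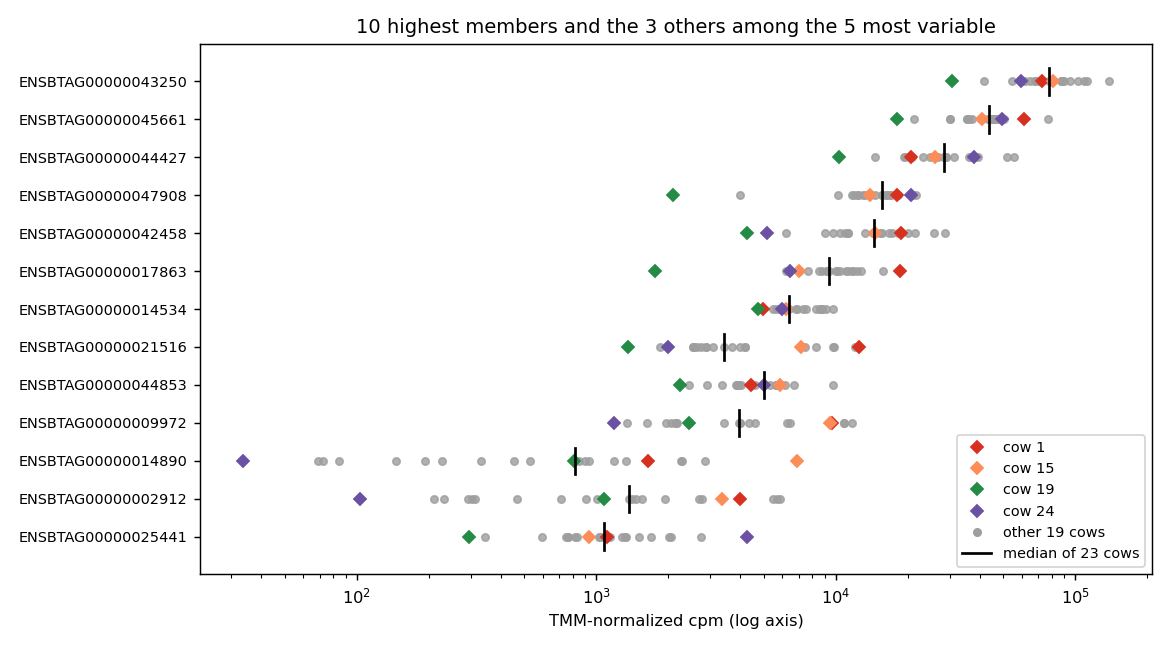
Points give the TMM-normalized cpm (log axis) of the 10 highest members and of the 3 further members among the 5 most variable in each of 23 cows, with the median as a black line and cows 1, 15, 19 and 24 in colour. Cow 19 was lowest for ranks 1 to 9, and ENSBTAG00000014890 spanned 33.5 in cow 24 to 6922 in cow 15.

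**Figure D4:**
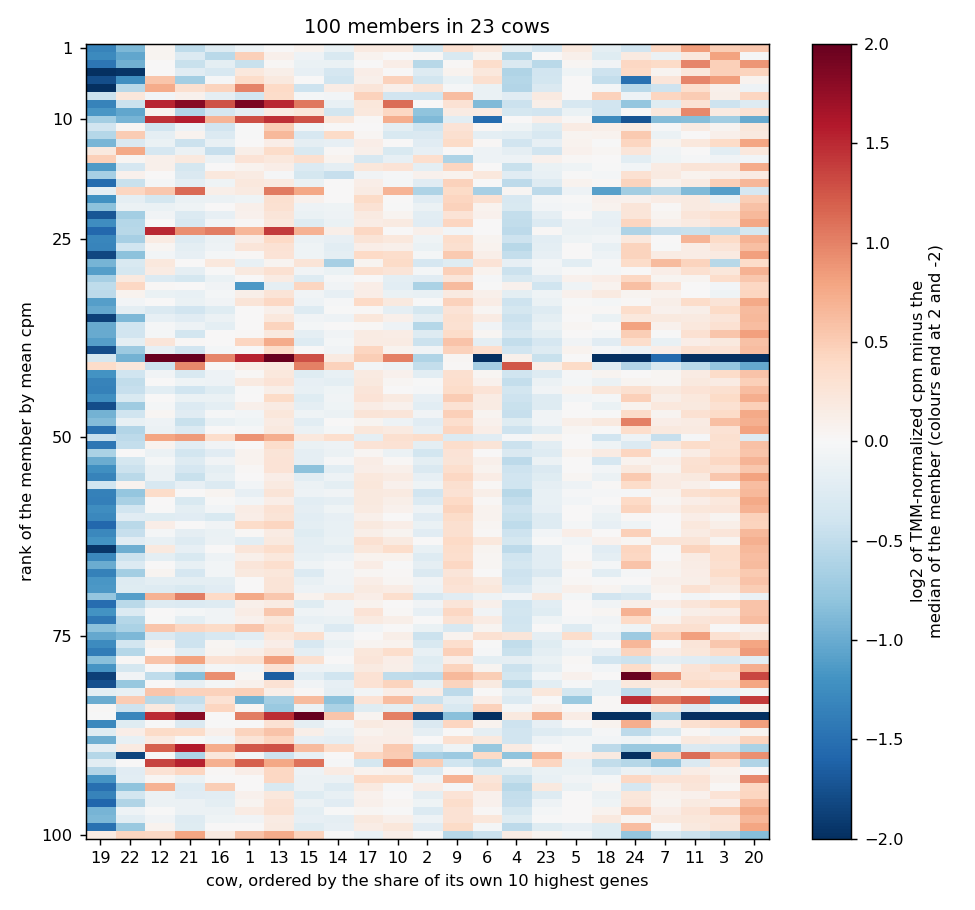
Colours give the log2 of the TMM-normalized cpm of each of 100 members (rows, by rank) minus the median of the member, in 23 cows ordered by the share of their own 10 highest genes, and end at 2 and -2. Cow 19 is low in most rows, and a few rows, among them ranks 8, 10, 40 and 85, vary in another order of cows than the rest.

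How the 10 highest members varied together is described by Pearson's r of log2 TMM-normalized cpm over 23 cows, with no test, since the members were chosen on these levels. The description was added after the data were seen. Its 45 pairs share their libraries and a scaling factor per cow. For the 10 pairs of ranks 1 to 5, r ran from 0.656 to 0.902, and from 0.510 to 0.855 without cow 19. With cpm of the total without the block and no TMM it ran from 0.432 (ranks 2 and 3) to 0.836 (ranks 1 and 3), so the pairs were looser on that scale and stayed positive.

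The highest r was that of ENSBTAG00000043250 (rank 1) and ENSBTAG00000044853 (rank 9), with r = 0.915 and rho = 0.865, and with r = 0.895 without cow 19 and 0.847 on the scale without the block. ENSBTAG00000043250 and ENSBTAG00000044427 (rank 3) had r = 0.902 and rho = 0.803. ENSBTAG00000021516 (rank 8) and ENSBTAG00000009972 (rank 10) had r = 0.877 and rho = 0.803, with r = 0.901 without cow 19 and 0.868 on the scale without the block. These last 2 members did not follow rank 1, with an r of 0.154 for rank 8 and -0.0319 for rank 10. Ranks 3 and 10 had r = -0.231, and -0.512 on the scale without the block. ENSBTAG00000017863 (rank 6) had r = 0.697 with rank 8, and 0.703 without cow 19. Its r with rank 1 rested on cow 19, being 0.542 with that cow and 0.162 without it.

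The study asked whether granulosa cell transcripts relate to the outcome of in vitro production, and it reported genes related to each score. Its scores were adjusted for the bull, and its model held age, RNA integrity and sampling date. These were not used here, so the results below do not repeat its model. The own top-10 share showed no relation to a score that passed a two-sided permutation test over 23 cows, with adjustment over the 3 scores. Against BL rate, r was 0.0757 (permutation p = 0.732, adjusted p = 0.996) and rho was 0.0327 (p = 0.881, adjusted p = 0.881). Against the kinetic score, r was 0.00105 (permutation p = 0.996, adjusted p = 0.996) and rho was -0.172 (p = 0.429, adjusted p = 0.644). Against the morphology score, r was 0.212 (permutation p = 0.330, adjusted p = 0.990) and rho was 0.296 (p = 0.172, adjusted p = 0.516). Without cows 19 and 22, the 2 farthest from the median share, r was 0.160 with BL rate, 0.156 with the kinetic score and 0.464 with the morphology score (n = 21, permutation p = 0.0336, adjusted p = 0.101). The relation to morphology thus depended on these 2 cows and did not pass adjustment either way. Directions turned with other choices. Without cows 1 and 15, r was -0.0328 with BL rate and -0.286 with the kinetic score, and with totals without the block it was -0.120, -0.207 and -0.0225 with BL rate, kinetic and morphology.

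Sums over the members are given without a test. The share of counts of the 100 members had r = -0.173 and rho = -0.198 with BL rate, r = -0.270 and rho = -0.291 with the kinetic score and r = -0.239 and rho = -0.229 with the morphology score. Without cows 4 and 19, r was -0.104, -0.229 and -0.219 in the same order. As part of the counts outside the block, the member share had r of -0.0643, -0.197 and -0.0789. The block had r of 0.201, 0.147 and 0.305. All of these are weak, and the member share and the block compete for the counts of the same libraries.

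**Figure D5:**
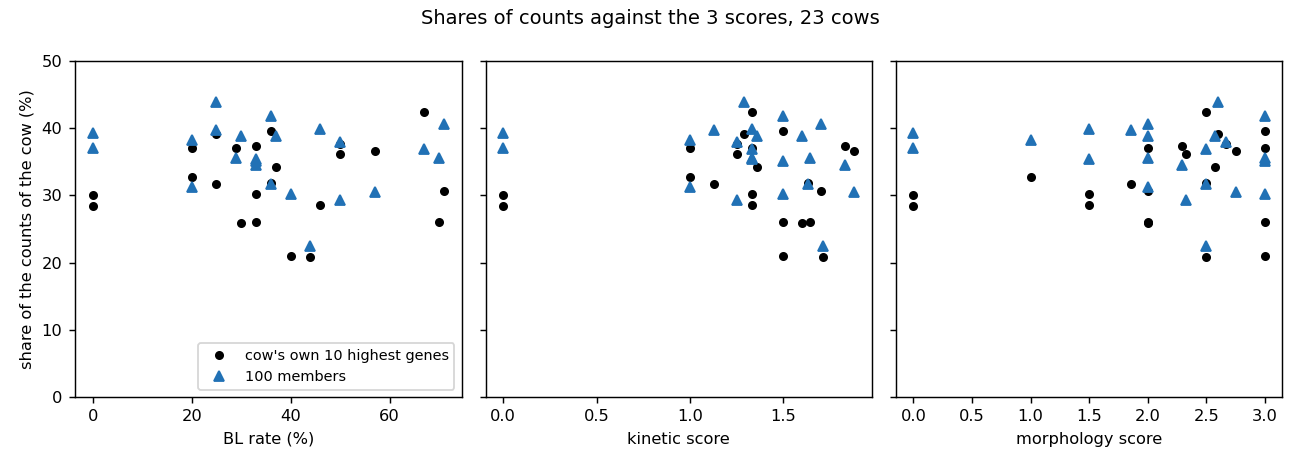
Points give the share of counts of each cow's own 10 highest genes (black) and of the 100 members (blue triangles), in percent, against BL rate, kinetic score and morphology score in 23 cows. Shares are spread over the whole range of each score, and cows 1 and 15 lie at 0 in all 3 panels with member shares of 39.3% and 37.0%.

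In the regression of counts on each score with the NTM class as covariate (edgeR's quasi-likelihood test over 12868 genes), 0 members had a Benjamini-Hochberg FDR under 0.05 for BL rate (0% of all genes tested), 0 for the kinetic score (0.00777% of all genes, that is 1 gene) and 0 for the morphology score (0.00777%, 1 gene). DESeq2's Wald test also called 0 members for each score, and over all genes it called 0% on BL rate, 0.0233% on the kinetic score and 0.567% on the morphology score. At an unadjusted p under 0.05, 0 members were found on BL rate (2.95% of all genes, 1.06% with a negative slope), 0 on the kinetic score (3.97%, 1.38% with a negative slope) and 5 on the morphology score (11%). All 5 had negative slopes, beside 4.76% of all genes, so the number with negative slopes was close to the background. Positive slopes with an unadjusted p under 0.05 were found for 0 members and for 806 of 12868 genes. In both directions together, the 5 of 100 members thus lay under the 11% of all genes. With each cow left out the number of members lay between 2 and 13. It was 13 without cow 21, 2 without cow 1, 3, 7 or 13, and 3 without cow 2, 9, 22 or 23. Over all genes, negative slopes with an unadjusted p under 0.05 moved as well, to 1266 of 12859 without cow 21 and to 421 of 12860 without cow 1. Without cows 1 and 15, 8 members had an unadjusted p under 0.05 on the kinetic score, all with negative slopes, as did 196 of 12849 genes, and the median log2 fold change of the members was -0.40 against 0.044 over all genes.

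The median slope of the members was small and moved with single cows. Per 20% of BL rate the median log2 fold change was 0.011 over members and 0.0036 over all genes, with 54 members above 0. Its sign turned without cow 20 (-0.052, 8 members above 0), without cows 1 and 15 (-0.021, 27 above 0) and with ranks of the score (-0.027, 18 above 0), so no direction can be given. Per unit of the kinetic score the medians were -0.071 and 0.022, with 18 members above 0. The median of the members was -0.013 without cow 19 (44 above 0), -0.14 without cow 24 (4 above 0) and -0.17 without cow 15 (6 above 0). Per unit of morphology the medians were -0.044 and 0.0067, with 17 members above 0. Here the median of the members was -0.023 without cow 19 (34 above 0) and -0.18 without cows 1 and 15 (10 above 0). Scaling by totals without the block moved the median of all genes for the kinetic score to 0.110 and that of the members to 0.0033, so the members stayed below all genes on both scales while the sign of their own median changed.

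For morphology, ENSBTAG00000021516 (rank 8) had the smallest p, at -0.46 per unit as a log2 fold change (SE 0.176, edgeR p = 0.0158, FDR = 0.420). It kept a negative slope when each cow was left out (-0.68 to -0.42), and its FDR lay between 0.0679 and 0.642 over the alternatives. ENSBTAG00000014890 (rank 85) had -0.74 (SE 0.327, edgeR FDR = 0.431) and ENSBTAG00000009972 (rank 10) had -0.46 (SE 0.207, edgeR FDR = 0.438). Without cow 15 the slope of ENSBTAG00000014890 was -0.39, and without cow 21 that of ENSBTAG00000009972 was -0.70. For the kinetic score, ENSBTAG00000014890 had -1.17 per unit (SE 0.582, edgeR FDR = 0.969), -0.32 without cow 15, and 0.44 (SE 1.84) without cows 1 and 15, so its sign rested on the cows that scored 0. ENSBTAG00000021516 had -0.63 (SE 0.332) and ENSBTAG00000014906 (rank 41) had -0.38 (SE 0.232), both with an edgeR FDR of 0.969, and the latter had -0.099 without cow 15. For BL rate, ENSBTAG00000013411 (rank 91) had -0.28 per 20% (SE 0.136), ENSBTAG00000021516 -0.31 (SE 0.167) and ENSBTAG00000014890 -0.60 (SE 0.321), each with an edgeR FDR of 0.977. Without cow 15 ENSBTAG00000014890 had -0.22 on BL rate, and without cow 16 ENSBTAG00000021516 had -0.47. None of these slopes passed the test. ENSBTAG00000021516 and ENSBTAG00000014890 were named for all 3 scores, which are scores of the same cows and not independent of each other, and both were among the 5 most variable members.

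Between the NTM classes of the bull, 0 members had an FDR under 0.05 by edgeR's quasi-likelihood test (0% of all genes). At an unadjusted p under 0.05 there were 5 members (21.5% of all genes), all with a lower value in the low-NTM cows (11.8% of all genes). The median log2 fold change, low minus high, was -0.11 over members and -0.0031 over all genes, with 6 members above 0. Cow 19, the lowest cow for 63 members in cpm without TMM, is one of the 8 low-NTM cows.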

How the data were processed

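Granulosa cell RNA of 24 Holstein cows was sequenced by the authors as stranded total RNA, with 1 library per cow. The authors trimmed the reads, mapped them with STAR to UMD3.1 and deposited raw HTSeq counts of read pairs per Ensembl gene, with no normalization. Counts depend on transcript length and GC content, which were not corrected here.

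Counts were read for 24615 genes, and cow 8 was left out as in the study. Shares were computed over all counts of a cow. After a filter (1 cpm or more in 3 or more of 23 cows) that kept 12868 genes, counts were scaled with TMM. Each score was tested by a quasi-likelihood regression in edgeR 4.0.16 under R 4.3.3, with the bull's NTM class as covariate. BL rate was scaled per 20%, the other scores per unit, and Benjamini-Hochberg adjustment ran over all genes tested. Correlations of the own top-10 share with the scores used permutation tests of 100000 resamples (numpy 2.4.6, with ranks from scipy 1.17.1). The regression was tested on simulated data. The alternatives were DESeq2 (1.42.0), limma voom (3.58.1), other scalings and filters, no covariate, ranks of the scores, cow 8 included, cows 1 and 15, 19 or 24 left out, and each cow left out in turn. Age, RIN, herd, bull and date were not used here, so no within-batch values were computed. Each cow is a separate animal.

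The members and lists were chosen with earlier results of these data known. Genes named are the 10 highest members, the genes with the largest parts of the variance of the top-10 share, the 5 members with the highest and the 5 with the lowest CV, the 3 members with the smallest p for each score, and the 3 genes on each side of rank 100. Members singled out beyond that in a count were chosen after their values were seen. Lists of known granulosa and other cell type genes could not be matched to identifiers, and no sequences or lengths were used.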

Additional observations from a re-analysis of the deposited data

Results flagged for a closer look

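Within the 8 low-NTM cows, 25 measures (shares and named members) were searched for a cow whose gap to the next exceeded Dixon's 95% limit, and 7 had one, in 5 cows. The limit is passed by chance in about 1 in 20 measures that are independent and chosen without their values. These measures overlap, and some members were named for their CV in these same cows. That rate therefore does not apply to the 7, which are a description. The own top-10 share of cow 19 was 20.9%, and the next cow had 30.2%. The member share of counts outside the block was 25.5% in cow 19, and the next cow had 38.2%. Among members, in TMM-normalized cpm, ENSBTAG00000014534 was 9754 in cow 9 (next 6392), ENSBTAG00000021516 was 7429 in cow 10 (next 4178) and ENSBTAG00000025441 was 4256 in cow 24 (next 1696). ENSBTAG00000013411 was 1572 in cow 10 (next 871) and ENSBTAG00000014906 was 3961 in cow 4 (next 2310). Cow 8, which entered no comparison, had 39.8% of its counts in the members, within the range of the other cows.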

How the results depend on the processing

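Under every alternative run, including each cow left out, 0 members had an FDR under 0.05 for any score. Over all genes, the count for BL rate was 0 and lay between 0 and 1 with each cow left out. For kinetic it was 1, and it became 3 with DESeq2, 186 without a filter on low counts, 0 without cows 1 and 15, 0 with ranks, and 0 to 3 with each cow left out. For morphology it was 1, and it became 2 with totals without the block, 73 with DESeq2, 0 with voom, 0 without cows 1 and 15, 0 with ranks, and 0 to 6 with each cow left out. For the NTM class it was 0, and 2 with cow 8. The correlation of the own top-10 share changed sign with totals without the block, to -0.120 (BL rate), -0.207 (kinetic) and -0.0225 (morphology), and without cows 1 and 15, to -0.0328 (BL rate) and -0.286 (kinetic). For kinetic it was -0.0470 without cow 24 and -0.0373 with 20 genes. With each cow left out it lay between -0.0639 and 0.181 (BL rate), -0.106 and 0.0882 (kinetic) and 0.161 and 0.348 (morphology). The slope on kinetic became 0.44 for ENSBTAG00000014890 and 0.010 for ENSBTAG00000014906 without cows 1 and 15. The member share was 42.2% of totals without the block, and the part of the members in the variance of the own top-10 share lay between 18.2% and 33.7% with each cow left out. The cause of these shifts was not tested. No paired analysis was possible because every library is a different cow and the replicate numbers only name them. Levels per kilobase were not run, as no gene length could be matched.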

Other observations

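Cow 8, the library that the study left out, had a member share of 39.8% with another makeup. Only 57 of the 100 members were among its own 100 highest genes outside the block, against 65 to 98 in the other cows. The block of cow 8 held 2.20% of the counts, under the lowest of the other 23 cows (5.75%). In cow 8, ENSBTAG00000045661 (rank 2) had 101378 cpm and ENSBTAG00000044427 (rank 3) had 72148 cpm, both above the highest of the other cows (68527 and 48948). ENSBTAG00000043250 (rank 1) had 44145 cpm, close to the lowest of the other cows (43353). ENSBTAG00000017863 (rank 6) had 1428 cpm and ENSBTAG00000044853 (rank 9) had 1318 cpm, both below the lowest of the other cows (2484 and 3008).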
